A study of Mus musculus with 6 samples.

Results

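Cluster 3 is 1 of 11 groups into which the authors divided haematopoietic stem cells (HSCs) sorted from mouse bone marrow, and its members were taken as the authors assigned them. It held 3802 of 22378 cells, or 17.0% of the total. The 6 libraries were 1 each from a young mouse fed ad lib, a young mouse after a 24 hr fast, a young mouse fasted for 24 hr and refed for 24 hr, and an old mouse under each of those 3 feeding conditions. All 6 mice carried the Gfp-Lc3 genotype, which tags the autophagy protein LC3 with a fluorescent protein. The cells of all libraries were pooled in the deposited tables, so which mice the cells of cluster 3 came from, and any difference with age or feeding, was not analysed here. With 1 mouse per group, no value below has a replicate error. The clusters had been made from these same transcripts, so differences between cluster 3 and other cells are described and not tested.

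HSCs renew themselves and supply all blood lineages, and most of them are quiescent at any time. With age they become more numerous and shift from lymphoid towards megakaryocyte and myeloid output, and a recurrent set of transcripts goes up in them. Several genes of that set, such as Vwf and Cldn5, are better known from endothelium, which shares a developmental origin with HSCs. RAMP2 is a single-pass membrane protein that pairs with the receptor CALCRL and gives it affinity for adrenomedullin. The metallothioneins MT1 and MT2 are small cysteine-rich proteins that bind zinc and copper, and metals induce their genes through the transcription factor MTF1.

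Promoter sequences are shown for the metallothionein pair, whose transcripts were raised together in cluster 3, and for the claudin gene Cldn5, another marker of the cluster. They are RefSeq entries on build GRCm38.p6, all on the plus strand. Each runs 5′ to 3′ from 200 bases before to 30 bases after the RefSeq start. The GENCODE start of Mt2 used further below, 94172664, lies past the end of the stretch shown for it. Capitals mark the core of the metal response element, TGCNCNC, on either strand, with overlapping matches allowed. Mt1 (chr8:94178889-94179118), Mt2 (chr8:94172418-94172647) and Cldn5 (chr16:18776647-18776876) follow.
Mt1: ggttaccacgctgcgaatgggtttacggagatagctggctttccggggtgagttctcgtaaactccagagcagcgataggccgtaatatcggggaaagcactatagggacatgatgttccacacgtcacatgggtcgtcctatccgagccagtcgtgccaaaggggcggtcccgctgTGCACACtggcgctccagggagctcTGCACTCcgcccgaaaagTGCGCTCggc
Mt2: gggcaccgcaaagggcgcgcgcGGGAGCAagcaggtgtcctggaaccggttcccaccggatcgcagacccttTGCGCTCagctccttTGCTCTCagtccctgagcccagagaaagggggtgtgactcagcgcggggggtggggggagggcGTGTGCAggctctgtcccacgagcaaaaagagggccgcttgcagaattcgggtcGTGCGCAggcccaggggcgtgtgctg
Cldn5: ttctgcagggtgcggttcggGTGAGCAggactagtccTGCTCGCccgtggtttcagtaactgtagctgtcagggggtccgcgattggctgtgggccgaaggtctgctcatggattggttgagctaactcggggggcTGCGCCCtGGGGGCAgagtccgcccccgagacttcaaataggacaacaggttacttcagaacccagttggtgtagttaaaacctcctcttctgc
The core occurred 3 times in the 300-base window of Mt1 (250 bases before to 50 after the start), 6 times in that of Mt2, of which 5 lie in the stretch shown, and 4 times in that of Cldn5. The window of Gpr183, also a marker, held 0 matches. At least 1 match was found for 62.8% of the 12390 measured genes with a window, at least 3 for 11.4% and at least 5 for 1.16%. Among the 81 genes with a window that were higher in cluster 3, 47 (58.0%) had at least 1 match. At least 3 were found for 11 (13.6%), and both shares are close to those of all genes. A match is a run of letters and not a site in use.

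Genes were called higher or lower by a size rule, a deposited log2 fold change of at least 0.5 in size against all other cells with a deposited adjusted p under 0.05. The p-values count cells as replicates and served only to screen out noise. By this rule 120 of 17055 genes with a count (0.704%) were higher in cluster 3 and 325 (1.91%) were lower. These shares are the background for the counts of called list members below. Of the lower genes 91 had no count in cluster 3, which allows a share of up to 0.0789% of its cells with a counted molecule, for counting error only. The other 234 were 1.39% of the 16824 genes with a count there. Most of the called genes were scarce, and the plot of folds by mean level shows how the called folds narrow as transcripts become abundant. Only 19 of the 120 higher genes had a log2 mean level above -3 over all cells, and 75 lay below -5. Depth could be read for cells of any cluster that alone held a given transcript, taking that transcript as 1 count. For 19 such genes, 2 of them in cluster 3, the cell's total ran from 4239 to 22599 counts, with a median of 11707.

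**Figure D1:**
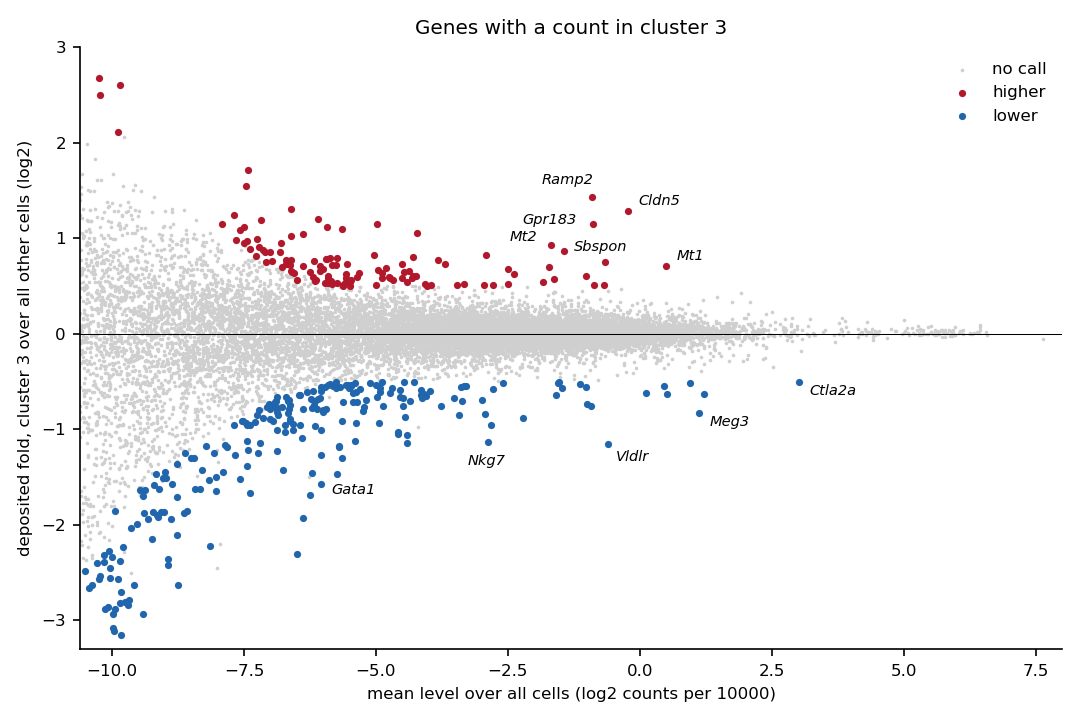
Deposited log2 fold change of cluster 3 over all other cells (vertical) against the log2 mean level over all cells in counts per 10000 (horizontal), 1 point per gene with a count in cluster 3; red and blue points were called higher and lower, and 830 scarcer genes, none of them called, lie outside the axes. Ramp2, Cldn5, Gpr183, Mt2, Sbspon and Mt1 stand above the other transcripts of like abundance.

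The marker genes were compared as levels, the mean over cells of the natural log of counts per 10000 plus 1, transformed back to counts per 10000. This mean runs below the arithmetic one where a few cells hold most of a transcript. Ramp2 (chr11:101246028-101259546, plus strand) had a level of 0.580 in cluster 3 and 0.215 in all other cells, and its log2 fold change of 1.43 was the highest among the markers in the authors' deposited table. Among the other large clusters, cluster 2 had 0.286, cluster 4 had 0.277, cluster 1 had 0.202 and cluster 0 had 0.129. The nearest of clusters 0 to 9 was cluster 9, with 112 cells, at 0.423. Ramp2 was thus highest in cluster 3 and lowest in clusters 0 and 8 (0.117).

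The partners and ligands of RAMP2 did not share this pattern. Calcrl, the receptor it pairs with, had a level of 0.233 in cluster 3 and 0.241 in the other cells. Ramp1, which turns the same receptor towards the peptide CGRP, ran the other way, with 1.55 in cluster 3 and 1.94 elsewhere, and its highest level was 2.75 in cluster 0. Ramp3 and the ligand genes Adm, Adm2 and Calca were all near 0, none above 0.000705 in cluster 3. Of 11 measured genes of this receptor system, Ramp2 alone passed the size rule.

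Cldn5 (chr16:18776847-18778262, plus strand) encodes claudin 5, a strand-forming protein of endothelial tight junctions. Its level was 0.729 in cluster 3 and 0.299 in the other cells, a log2 fold change of 1.28 in the authors' deposited table. It ran from 0.154 in cluster 0 through 0.307 in cluster 1 and 0.355 in cluster 4 to 0.418 in cluster 2, and was 0.548 in cluster 9. The large clusters thus stood in the same order as for Ramp2. Over clusters 0 to 9, among 85 higher genes with a count in each, the log2 levels most like those of Ramp2 were those of Cldn5 (Pearson r = 0.954), B3gnt8 (0.909), Clu (0.897), Gprc5c (0.893) and Sbspon (0.888). These 10 points share cells, depth and the clustering, and no test was made. All 85 had been called higher in cluster 3, as Ramp2 was, so part of the likeness comes from that choice. Of 31 measured tight and adherens junction genes, Cldn5 was the only one called, and 23 had a fold above 0.

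Gpr183 (chr14:121952551-121965195, minus strand) encodes a receptor for oxysterols that steers the migration of lymphocytes. It was at 0.550 in cluster 3 against 0.249 in the other cells, with a log2 fold change of 1.14 in the authors' deposited table. Cluster 3 was not its highest cluster: cluster 9 reached 0.710, while cluster 4 followed at 0.375 and cluster 8 was lowest at 0.0622. Cyp7b1 and Hsd3b7, enzymes that make and break down its ligand, differed little from the other cells (0.0538 against 0.0485, and 0.303 against 0.334). Sbspon (chr1:15853862-15892722, minus strand), a secreted matrix protein with somatomedin B and thrombospondin domains, was at 0.356 in cluster 3 and 0.196 elsewhere. It was almost as high in cluster 9 (0.341), and cluster 4 came next at 0.269.

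Mt1 (chr8:94179082-94180327) and Mt2 (chr8:94172664-94173568), neighbours on the plus strand, were both highest in cluster 3. Mt1 had a level of 1.19 there against 0.730 in the other cells, and Mt2 had 0.311 against 0.163. Their order across the large clusters differed from that of Ramp2, since cluster 0 came second (0.873 for Mt1 and 0.208 for Mt2) and cluster 2 last (0.478 and 0.0997). Of 19 measured metallothionein and zinc transport genes, these 2 were called higher and none lower, with 12 folds above 0 and a median of 0.04. The third measured metallothionein, Mt3, was scarce, at 0.00774 in cluster 3 and 0.00636 in the other cells.

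**Figure D2:**
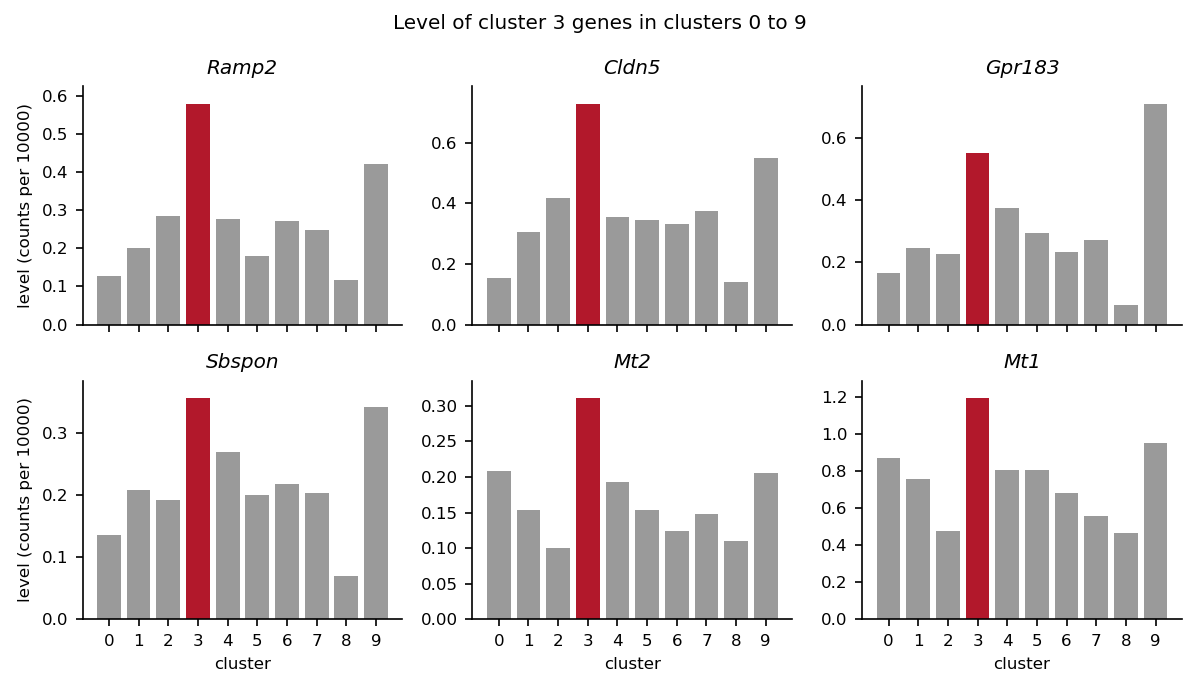
Level in counts per 10000 (vertical, from 0) of the 5 marker genes and Mt1 in clusters 0 to 9 (horizontal), 1 bar per cluster with cluster 3 in red; the 6 libraries are pooled, so the bars have no replicate error. Cluster 3 has the highest bar for all but Gpr183, where cluster 9 is higher (0.710 against 0.550).

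Ageing genes were the list that stood highest. Of 39 measured members 9 passed the size rule as higher and none as lower, against 0.704% and 1.91% of all genes. A fold above 0 was found for 37, with a median log2 fold change of 0.33 against 0.01 over all genes with a count in cluster 3. The 9 were Ramp2, Cldn5, Gpr183, Mt1, Mt2, Sbspon, Vwf, Clu and Neo1. Of these, 5 are the markers of the cluster, so their calls were known beforehand and lend the list no support. The list was also chosen with earlier results of these data known. Without these 5 the median was 0.31. Vwf, the von Willebrand factor of platelets and endothelium, had a level of 0.473 in cluster 3 and 0.311 in the other cells, and Clu, the secreted chaperone clusterin, had 0.464 and 0.325. The exceptions below 0 in the authors' deposited table were Jun, which is also an immediate early gene (-0.35), and Arhgap30 (-0.20).

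The other members did not pass the size rule. Nupr1, a stress-induced nuclear protein, was at 2.62 in cluster 3 and 1.95 in the other cells, and Selp, the adhesion receptor P-selectin, was at 0.556 and 0.487. Cluster 3 did not hold the highest level throughout. Among clusters 0 to 9 it ranked first for 12 of the 39 and cluster 9 for 17, and the summed level of the list was 28.3 in cluster 3 and 40.7 in cluster 9, while clusters 4 and 0 had 27.7 and 20.3. Abundant members weigh most in such a sum, and Jun alone was at 3.05 in cluster 3 and 5.21 in cluster 4. The median log2 fold change of the list, which abundance does not weight, was also higher in cluster 9 (0.39) than in cluster 3 (0.33). Selp was highest in cluster 9 (0.730) and second in cluster 5 (0.638).

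The stem cell identity of the cluster was checked with 35 measured genes of long-term HSCs. Procr, the receptor for activated protein C used to sort these cells, was at 1.34 in cluster 3 and 1.19 elsewhere. Hlf and Mecom, transcription factors that maintain HSCs, were at 3.82 and 1.41 in cluster 3, and cluster 2 had 4.29 and 1.74. Slamf1, the antigen CD150, was highest in cluster 3 (0.316), ahead of cluster 9 (0.312). 1 member, Vwf, was called higher, and 23 had a fold above 0 (median 0.07), so most of these genes differed little from the other cells. The cluster that led this list was cluster 2, highest for 13 members.

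The 2 members called lower were Meg3 and Rian, noncoding transcripts of the imprinted Dlk1-Meg3 domain. Meg3 (chr12:109541001-109571726, plus strand) had a level of 0.502 in cluster 3 and 0.894 in the other cells. Cluster 5 had 1.88 and cluster 2 had 1.62, but cluster 0 had 0.366, so cluster 3 was low without being lowest. Rian was likewise highest in cluster 5 (0.185) and then cluster 2 (0.153), with 0.0493 in cluster 3.

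Because several leading genes are known from endothelium, 19 markers of endothelial cells were read together. Ramp2, Cldn5, Vwf and Sox18 were called higher, none was called lower, and 9 folds were above 0 with a median of -0.03. Cdh5 (0.000227), Flt1 (0.000620), Plvap (0.00302) and Fabp4 (0.00375) were near 0 in cluster 3. Cdh5 was near 0 in the other cells too (0.000615). Emcn, Tie1 and Robo4 had folds of -0.34, 0.04 and -0.05 in the authors' deposited table and were not called. Pecam1 and Kdr, which HSCs also express, were at 0.191 and 0.0754 there against 0.204 and 0.0681 in the other cells. The 15 markers that were not called had a summed level of 3.42 in cluster 3 and 3.50 in the other cells, so some members were well above 0 in both. Sox18, a transcription factor of vessels, was highest in cluster 9 (0.112), then in cluster 3 (0.0803) and cluster 2 (0.0743).

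Further named genes of the higher group spanned several functions. Srm, which makes the polyamine spermidine, was at 0.609 in cluster 3 and 0.578 in cluster 0, but 0.340 in cluster 4 and 0.342 in cluster 1. Klrb1c, a lectin-like receptor known from natural killer cells, was at 0.266 against 0.164 in the other cells, and cluster 9 exceeded it at 0.362. The T and NK cell list gave no wider rise: of 9 measured members Klrb1c was called higher, Nkg7 lower, and 3 folds were above 0. Matn4, an extracellular matrix protein that restrains HSC division, was at 0.252 in cluster 3, 0.121 in cluster 2 and 0.264 in cluster 7. Hoxb8 had 0.188 against 0.122 in the other cells, and Epcam, an epithelial adhesion molecule, 0.159 against 0.111. Of the remaining genes among the first 20, the glycosyltransferase gene B3gnt8 was at 0.183 against 0.114, the lectin gene Zg16 at 0.137 against 0.0776 and Mab21l2 at 0.0623 against 0.0300. The muscarinic receptor gene Chrm3 and the potassium channel gene Kcnb2 were at 0.0732 and 0.0393, and both were higher still in cluster 9 (0.0755 and 0.0651).

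**Figure D3:**
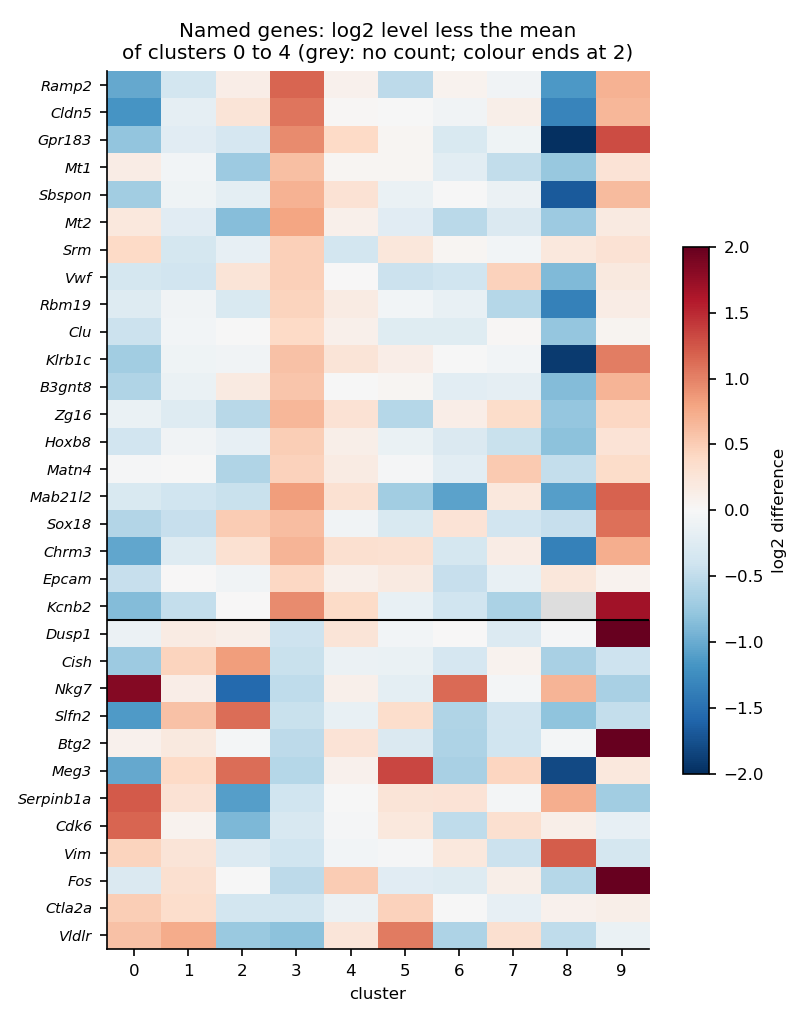
Log2 level of the first 20 higher genes (above the line) and the last 12 lower genes (below it) in clusters 0 to 9, each less its mean over clusters 0 to 4, red above and blue below that mean. The higher genes are red in cluster 3 and mostly in cluster 9, as for Gpr183 (0.550 and 0.710), while the lower genes peak in different clusters, as for Fos in cluster 9 (13.1).

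The set was shared in part with other clusters. Among clusters 0 to 9, cluster 3 ranked first for 51 of the 120 higher genes, and cluster 9 lay above it for 50. Among the 5 large clusters none exceeded cluster 3 for 115 of them. The highest of the other 4 large clusters was cluster 4 for 51 of the 120, cluster 2 for 45, cluster 0 for 14 and cluster 1 for 10. The small clusters 5 to 9 rest on 112 to 1188 cells, and cluster 10, with 10 cells, was left out of these orders.

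Of 34 MYC and nucleolar genes 33 had a fold above 0, with a median log2 fold change of 0.18, and Rbm19, which processes ribosomal RNA, was called higher (0.315 in cluster 3, 0.212 in the other cells). Nop56, Nop58 and Nolc1, factors of small nucleolar ribonucleoproteins, were at 1.06 against 0.850 in the other cells, 1.29 against 1.10, and 0.508 against 0.437. Myc itself was the exception, with 0.386 in cluster 3 and 0.521 elsewhere. Cluster 0 had a near equal median (0.17), and clusters 1, 2 and 4 were below 0. Of 23 polyamine and MYC metabolic genes 19 had a fold above 0 (median 0.08), and Srm was called. Odc1, which makes putrescine, was at 0.497 against 0.421.

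Immediate early genes, which a cell transcribes within minutes of a stimulus, were low. Of 41 measured members 7 were called lower and none higher, against 1.91% and 0.704% of all genes. A fold below 0 was found for 33, and the median was -0.28. Fos, a subunit of the AP-1 factor, had a level of 0.958 in cluster 3 and 1.48 in the other cells, and ran from 1.12 in cluster 0 to 1.96 in cluster 4. Btg2, an antiproliferative gene, was at 0.566 against 0.874, and the phosphatase gene Dusp1 at 0.224 against 0.322. Egr2, Egr3, Egr4 and Nr4a1, all transcription factors, were called too but were scarce, from 0.000503 (Egr4) to 0.0518 (Nr4a1) in cluster 3.

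Within the 5 large clusters, cluster 3 was the lowest for 18 of the 41 and the highest for 2. Cluster 9 exceeded all 5 for 39 of them, with Fos at 13.1 and Btg2 at 7.28. Cluster 3 had a summed level of 22.5 over the list. The sum was 22.9 for cluster 0, and clusters 6 and 8 were lower, each at 20.5. The promoter of Egr2 is shown because it holds a CArG box, the site that serum response factor binds in many immediate early genes. The stretch lies at chr10:67537366-67537595 on the plus strand of GRCm38.p6, from RefSeq, at the first of the 5 Egr2 starts in the table with a match, and the capitals mark the box.
Egr2: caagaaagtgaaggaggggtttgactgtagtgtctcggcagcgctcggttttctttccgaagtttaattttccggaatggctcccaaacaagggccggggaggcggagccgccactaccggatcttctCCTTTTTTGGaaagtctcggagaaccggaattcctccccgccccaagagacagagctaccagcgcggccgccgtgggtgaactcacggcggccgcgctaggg
A CArG box was found in the windows of 198 of all 12390 genes, and of 4 of 32 immediate early genes with a window. Of the 6 immediate early genes called lower that had a window, 1 held the box. It was as frequent among all genes higher in cluster 3 (3 of 81, 3.70%) as among those lower with a count (6 of 158, 3.80%).

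**Figure D4:**
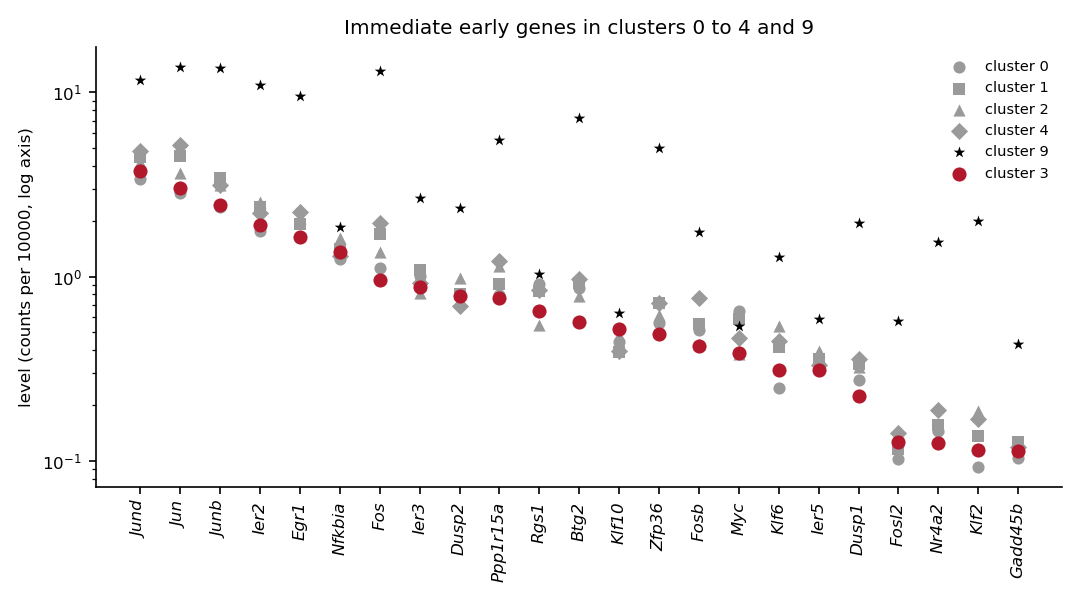
Level in counts per 10000 (vertical, log axis) of the 23 immediate early genes with a level of at least 0.1 in cluster 3 (horizontal), in clusters 0 to 4 and 9, 1 mark per cluster with cluster 3 in red. Cluster 3 lies at or near the lower end of the large clusters for most of them, as for Fos (0.958) and Btg2 (0.566), and cluster 9 lies far above.

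Among the lower genes with a count in cluster 3, Vldlr (chr19:27216484-27254231, plus strand) stood last in the authors' deposited table, with a log2 fold change of -1.16. It encodes a receptor for very-low-density lipoprotein and for reelin. Its level was 0.205 in cluster 3 and 0.457 in the other cells, with 0.217 in cluster 2, 0.604 in cluster 1 and 0.740 in cluster 5. Cluster 3 was the lowest of clusters 0 to 9, with cluster 2 close to it. Of 20 genes for lipoprotein uptake Vldlr alone was called, and 10 folds were above 0.

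Cdk6, a kinase that lets HSCs leave quiescence, was at 0.659 against 0.967 in the other cells, between cluster 2 (0.441) and cluster 0 (1.85). Serpinb1a, a protease inhibitor of myeloid cells, was at 0.217 against 0.361, and Nkg7, a granule protein, at 0.0444 against 0.0976. Both were lowest in cluster 2 among the large clusters (0.133 and 0.0216) and highest in cluster 0 (0.670 and 0.225). Vim, the intermediate filament vimentin, was at 1.04 against 1.49, and Ctla2a, a cysteine protease inhibitor, at 4.65 against 6.62. Slfn2 and Cish, a quiescence factor of immune cells and a feedback inhibitor of cytokine signals, were highest in cluster 2 (1.30 and 0.606) and at 0.439 and 0.249 in cluster 3.

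Of 24 lymphoid priming genes 3 were called lower and none higher, against 1.91% and 0.704% of all genes. The list had 4 folds above 0 and a median of -0.33, or -0.13 without members below the median mean level of all genes. A low median was not particular to cluster 3, since that of cluster 2 was lower still (-0.56). Clusters 0, 1 and 4 had higher medians (0.27, -0.10 and -0.13). The summed level of the list ran the other way, with 9.53 for cluster 2 and 8.46 for cluster 3. Among the called ones were Tespa1 and Cd52, at 0.00363 and 0.0287 in cluster 3. Of 25 erythroid priming genes 5 were lower and Mt1 was higher, with 7 folds above 0 and a median of -0.20, which turned to 0.0158 without members below the median mean level. Among the lower ones were Gata1, the erythroid and megakaryocyte transcription factor (0.00401 against 0.0119), Car1, Hba-a1, and Alas2, which had no count in cluster 3. The level of Hba-a1 was far below its arithmetic mean over all cells (-0.93 on the log2 scale), a gap that arises where few cells hold most of the counts.

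Of 24 myeloid priming genes 2 were called lower, Ms4a3 and Plac8, with 7 folds above 0 and a median of -0.10. Of 23 megakaryocyte and platelet genes Vwf was higher, Gata1 and Treml1 were lower, and the median was 0.00. No B cell (13 measured), macrophage (15) or stromal (9) marker was called. The summed levels of these lists were 0.582, 2.11 and 0.326 in cluster 3, and 0.652, 2.35 and 0.374 in the other cells. Single members such as Adgre1 (0.000600 against 0.000350) and Col1a1 (0.00124 against 0.000929) were close to 0 on both sides. Of 7 mast cell and basophil genes 3 were lower, among them Cpa3 (0.00629 against 0.0142). The medians of these scarce markers were -1.07 for mast cells and basophils, -0.54 for B cells and -0.48 for 9 T and NK cell genes.

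Cycling genes differed little in size, but most folds were below 0. Of 30 S phase genes none was called, with 21 folds below 0 and a median of -0.05. Of 30 G2M phase genes Aurkb and Cenpe, which act in chromosome segregation, were lower, with 22 folds below 0 and a median of -0.16. The summed level of the G2M list was 4.56 in cluster 3 and 4.57 in the other cells. Ccnd1, the cyclin D1 of G1 phase, was highest in cluster 3 (0.332 against 0.260), without passing the size rule.

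**Figure D5:**
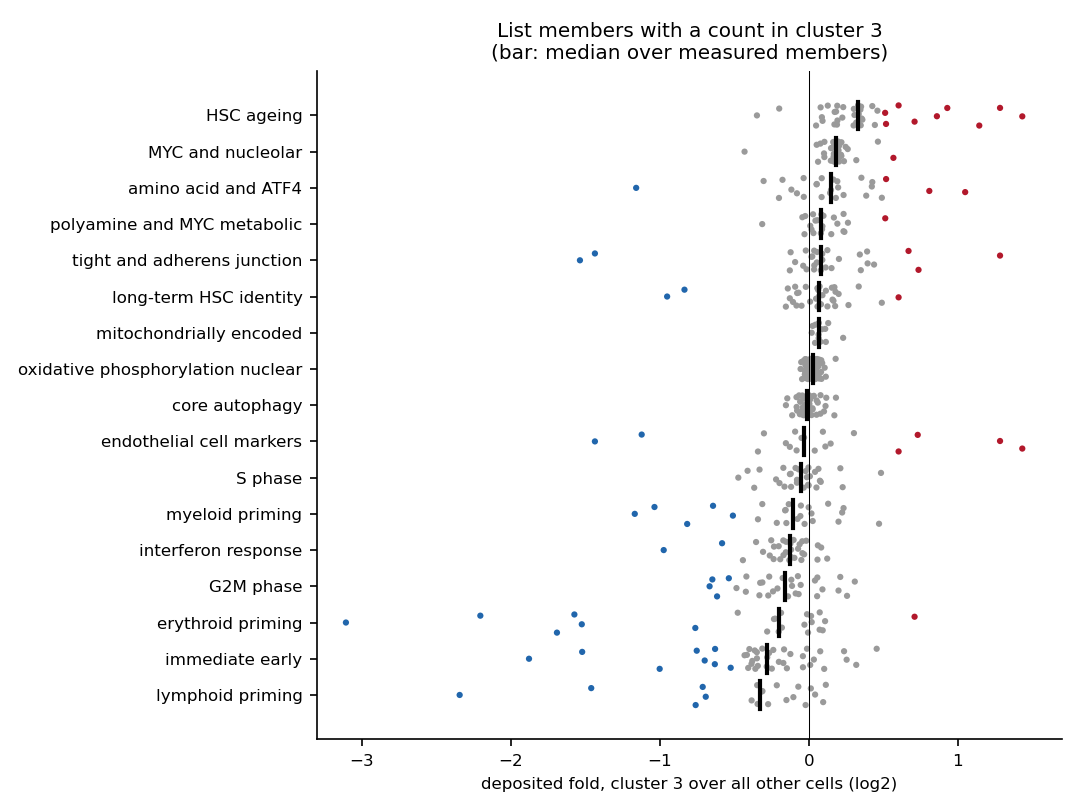
Deposited log2 fold change of cluster 3 over all other cells (horizontal) for members of 17 gene lists with a count in cluster 3, 1 point per gene, red at 0.5 or above and blue at -0.5 or below whatever the adjusted p, with a black bar at the median over measured members. Of the 17 plotted lists, ageing genes lie highest (median 0.33), and immediate early (-0.28) and lymphoid priming genes (-0.33) lowest.

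To see what sets cluster 3 apart from each neighbour, levels were compared directly for 8528 genes at or above the median mean level with a count in each of clusters 0 to 9, by a log2 ratio of at least 0.5 in size and with no test. Against cluster 0, 154 genes (1.81%) were higher in cluster 3 and 93 (1.09%) lower. After Cldn5, Ramp2 and Gpr183 the highest ratios belonged to Tns2, a focal adhesion protein, and Cyp26b1, which degrades retinoic acid (0.135 against 0.0488). Among the lowest were Nkg7, Plac8 and Runx3, a transcription factor of lymphocytes (0.182 against 0.432). Against cluster 1 the counts were 37 (0.434%) and 35 (0.41%), led by Ramp2 and by Vldlr at either end.

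Against cluster 2, 73 genes (0.856%) were higher in cluster 3 and 99 (1.16%) lower. The highest ratio was that of Rcvrn (0.144 against 0.0455), followed by Mt2 and Mt1, and Cdkn2c, an inhibitor of CDK4 and CDK6, was also among them (0.143 against 0.0689). The lowest ratios were those of Meg3, Rian, Slfn2 and Socs2, a cytokine feedback inhibitor (0.197 against 0.537). Igf2bp2, an RNA-binding protein of HSCs, split the neighbours: its level of 0.0638 in cluster 3 lay between 0.170 for cluster 2 and 0.0255 for cluster 0.

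Against cluster 5, with 1188 cells, 22 genes (0.258%) were higher in cluster 3 and 32 (0.375%) lower. Against cluster 4, 14 genes (0.164%) were higher and 46 (0.539%) lower. The higher ones in that comparison were led by Ramp2, Cldn5, Srm, Mt2 and Ctps, the enzyme that makes CTP (0.105 against 0.0691). Of the 10 lowest ratios 5 belonged to immediate early genes: Fos, Fosb, Nr4a1, Btg2 and Jun (3.05 against 5.21). The median size of the log2 ratio was 0.0720 against cluster 5, 0.0844 against cluster 0, 0.0866 against cluster 1, 0.0934 against cluster 2 and 0.0972 against cluster 4. Against cluster 9, 457 genes (5.36%) were higher and 476 (5.58%) lower, and the median size was 0.185, with 112 cells behind the levels of cluster 9.

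The authors also scored 2922 pathways per cell. By a deposited adjusted p under 0.05 and a log2 fold change of at least 0.25 in size, 18 (0.616%) were higher in cluster 3 and 14 (0.479%) lower. In the authors' deposited table the top scores were those of the Reactome sets for tight junction components regulated by RUNX1 (log2 fold change 0.36) and tight junction interactions (0.35), and of the WikiPathways blood clotting cascade (0.47). The lowest scores in the authors' deposited table were those of Reactome reelin signalling (-0.56) and VLDL clearance (-0.59). Cldn5, Vwf and Vldlr are textbook genes of these processes, but which genes each set holds was not analysed here. The sets for tamoxifen and arylamine metabolism had the same folds as Sult1a1 in all 11 clusters (within 0.001), so they carried 1 gene. Ribosomal RNA modification had the third highest score with a small fold (0.06) in the authors' deposited table.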

How the data were processed

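Droplet single-cell RNA sequencing was done on sorted HSCs of 6 mice, and the labels give about 30000 sorted and 10000 loaded cells for each. The tool Scanpy and the build mm10 are named in the submitters' processing notes. The sources used here do not name the aligner, the cell filters, the treatment of doublets or the clustering settings. The 22 deposited tables compare each of 11 clusters with all other cells. The authors give each gene's log2 mean level in counts per 10000 and a log2 fold change. The deposited p-value and its adjusted p-value treat cells as replicates. The pathway score the authors deposited is a signed statistic over cells, and the sources used here do not say how a cell was scored. Cell barcodes and cells per library were not analysed here.

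Cell numbers per cluster were read from the deposited p-values of genes seen in 1 cell, whose Welch statistic is 1 in size. Each gene's level in every cluster was then solved from its 11 deposited folds and the shares of cells. For 17034 genes a solution was found, and for 21 none. The total level agreed within 0.0177% with that read directly for 1781 genes with no count in cluster 10. The plan had taken the deposited mean level for this step, but the deposited folds lie on the log-mean scale, so that level could not serve. The step was tested on simulated data. Levels are not corrected for transcript length. They were compared within a gene, or as sums over the same list, where abundant members weigh most.

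Named genes were the 5 markers, the first 20 higher and last 12 lower genes in the order of the authors' table (skipping names of the Gm and Rik type), members of 38 gene lists past the size rule or, where fewer than 3 passed, up to 4 with the largest folds, and the 5 genes most like Ramp2. Genes named outside that rule, such as further list members given for contrast and the genes of the direct comparisons, were chosen after their values were seen. Some list members are not reported here. Members and lists were chosen with earlier results of these data known. Coordinates are from GENCODE vM21 on GRCm38, and promoters from RefSeq. Python 3.11.15, numpy 2.4.6, pandas 2.3.3, scipy 1.17.1 and matplotlib 3.10.9 were used.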

Additional observations from a re-analysis of the deposited data

How the results depend on the processing

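The counts of called genes follow the size limit. At a log2 fold change of at least 0.25, 372 genes were higher and 579 lower, at 1 they were 22 and 197, and by adjusted p alone 1432 and 1294. Without genes below the median mean level 20 and 25 remained past the rule. Against the equal-weight mean of clusters 0, 1, 2 and 4, by fold alone in genes at or above the median mean level, 18 and 24 passed. The pathway counts were 781 and 844 with no size rule, 76 and 82 at 0.1, and 3 and 2 at 0.5.

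The median of erythroid priming genes was 0.0158 without members below the median mean level, so its direction turned, and the mean over members with a count was -0.50. The median of lymphoid priming genes shrank to -0.13 without the scarce members. The T and NK cell median turned to 0.00714 against the mean of clusters 0, 1, 2 and 4. The cause of these shifts was not tested. Against that same reference 31 of 32 named genes kept a log2 ratio of at least 0.5, and Clu had 0.48. The medians of ageing, immediate early and MYC and nucleolar genes moved by less than 0.1 under each alternative tried. The counts that follow leave out the erythroid and the T and NK cell medians that turned. Over all 38 lists, the value moved by at least 0.1 in 6 for the mean over members with a count, in 5 without scarce members, in 3 for the other reference and in 1 without members shared with another list. Of these 15 values 3 had the opposite sign, from medians within 0.0238 of 0. The erythroid and the T and NK cell medians turned from farther off, at -0.20 and -0.48. Leaving out the 5 markers was added after seeing the data. No paired analysis was possible because each group is 1 library and the deposited tables pool all 6.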

Other observations

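The genes named in these paragraphs beyond the list members were chosen after their values were seen. Hoxb8 was not the only gene of the HOXB complex above the other cells. In the authors' deposited table Hoxb7 (0.56), Hoxb8 (0.63) and Hoxb9 (0.60) were called higher. Hoxb2 (0.24), Hoxb3 (0.24), Hoxb5 (0.18) and Hoxb6 (0.27) lay above 0 in the authors' deposited table without passing the rule, and Hoxb4 was at -0.04. Genes of the HOXA complex did not share this: Hoxa5 was at 0.05, Hoxa7 at 0.01, Hoxa9 at -0.08 and Hoxa10 at -0.14 in the authors' deposited table. The levels of Hoxb7 and Hoxb9 were low, 0.0373 and 0.0509 in cluster 3. Beside Meg3 and Rian, the neighbouring imprinted genes Mirg and Dlk1 were also called lower, at 0.00558 against 0.0112 and 0.0994 against 0.148. Among other imprinted genes Igf2 was called lower, while Grb10, Ndn and Cdkn1c were not called, with 0.314 against 0.301, 0.463 against 0.424 and 0.633 against 0.560.

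Of 38 core autophagy genes none was called in cluster 3 (18 folds above 0, median -0.01), and the summed level was 16.4 in cluster 3 and 16.6 in the other cells. All 13 mitochondrially encoded genes had a fold above 0 with a median of 0.07, and their summed level was 419.0 against 398.8. Nuclear genes of oxidative phosphorylation were close to the other cells (median 0.03, none of 54 called), as were 20 glycolysis genes (0.05). Of 32 interferon response genes 28 had a fold below 0 and Ifi27l2a was called lower (median -0.13), while cluster 2 held the highest level for 18 of them. None of 21 antigen presentation, 24 cholesterol synthesis or 25 heat shock and chaperone genes was called, and in the inflammation list Il1b alone was, as lower (0.000140 against 0.00107). Igf1 was the only 1 of 31 FOXO and fasting genes called, at 0.0133 in cluster 3 against 0.0271. Of 27 amino acid and ATF4 genes 19 had a fold above 0 (median 0.15), with Slc1a4 called higher and Vldlr lower. Rbm3, an RNA-binding protein induced by cold, was abundant and above the other cells without passing the rule, at 4.23 against 3.35, with cluster 0 at 4.61.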
